A study of Homo sapiens with 40 samples.

Results

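XRCC1, LIG3, APTX, APLF, CHD1L, HPF1, POLB, APEX1 and FEN1 are the 9 genes described here, chosen by name as the partners with which PARP1 repairs single-strand breaks. They were 9 of 58395 genes in the table, and all 9 were among the 28922 genes with enough counts to test. Breaks in 1 strand of DNA arise from oxidation, from base excision and from trapped topoisomerase 1 (TOP1). PARP1 binds such a break and attaches poly(ADP-ribose) to itself and to nearby proteins, HPF1 completes its active site so that serines are modified, and the polymer draws in the scaffold XRCC1, the ligase LIG3 and other factors. APEX1, POLB, APTX and FEN1 then prepare and fill the gap before it is sealed.

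The cells were HEK293A, an adherent human embryonic kidney line, either wild type (WT) or with PARP1 knocked out by CRISPR/Cas9 (PARP1-KO). The sample titles call the second line a knockout and a genotype field calls it a knockdown. It is 1 clone, so its genotype and any other way in which that clone differs from WT cannot be told apart. Each genotype was left untreated, given 0.1% DMSO as solvent, topotecan (Tpc) with 0.1% DMSO, 5 µM OL9-119 in 0.1% DMSO, or Tpc with 5 µM OL9-119, for 5 to 5.5 h before RNA isolation, with 4 libraries in each of the 10 conditions. Tpc poisons TOP1 and was used at 100 nM in WT and 50 nM in PARP1-KO cells, so the doses differed between the genotypes, and OL9-119 inhibits TDP1, the enzyme that frees DNA ends from trapped TOP1.

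Gene counts summed to between 3455043 and 20379777 per library, with a median of 10656829. PARP1 itself lay between 737 and 887 CPM (counts relative to the size of the library, after TMM scaling) in the 20 WT libraries and between 30.4 and 46.6 CPM in the 20 PARP1-KO libraries. Between 4.33% and 5.24% of the WT level remained in the PARP1-KO cells, depending on the treatment (exact permutation test, two-sided p = 0.0286 in each of 5 treatments, the smallest p that 4 against 4 allows). The line markers VIM, KRT8 and KRT18 were at 189 CPM or more in every library, while NEFM reached down to 3.38 CPM and PAX2 to 0.0979 CPM. Of 5 markers of other cell types, PTPRC (leukocytes) was at 0 in 31 of 40 libraries, ALB (hepatocytes) in 17 and PECAM1 (endothelium) in 4. DES (muscle) and GFAP (astrocytes) had counts in every library, with medians of 2.88 and 1.56 CPM, beside 1.40 CPM for PAX2. These 5 markers summed to 3.13 to 9.99 CPM in WT and 2.67 to 7.06 CPM in PARP1-KO libraries. Mitochondrial genes took 4.73% to 8.25% of counts in WT and 3.73% to 4.97% in PARP1-KO libraries, and their part in the results was not tested. In RNA from whole cultures, fewer cells of a type and less RNA per cell cannot be told apart.

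Per kilobase of exon, the nuclease and the endonuclease were the most abundant of the 9 transcripts. In untreated WT cells, FEN1 stood at 113 ± 15.2 CPM per kilobase (SD, n = 4) and APEX1 at 73.5 ± 20.8 CPM per kilobase. HPF1 followed at 34.4 ± 9.63 and CHD1L at 31.7 ± 6.44 CPM per kilobase, and the ranges of this pair overlapped. Lower on the same scale came XRCC1 at 10.7 and POLB at 6.98 CPM per kilobase, whose ranges also overlapped, then LIG3 at 3.64 and APTX at 3.13 CPM per kilobase, again overlapping, and APLF at 0.720 CPM per kilobase. FEN1 held the top place and APEX1 the next in all 10 conditions, with overlapping ranges in 2 of them, and APLF came last in all 10. In untreated PARP1-KO cells CHD1L, at 21.6 CPM per kilobase, had a higher mean than HPF1 at 15.4, with overlapping ranges. Their ranges overlapped in all 5 WT conditions too, where HPF1 had the higher mean in 4 and CHD1L in 1 (OL9-119). CHD1L shares 63.2% of its exon bases with another gene, and these were kept in its length. If reads there were not counted, its level per kilobase is too low. The length of the canonical transcript in place of all exons was a choice made after seeing the data. With it FEN1 led in 8 conditions and overlapped with APEX1 in 8. APTX rose from the 8th place to the 5th in untreated WT cells and from the 7th to the 4th in untreated PARP1-KO cells. Its exons cover 15614 bases and its canonical transcript 1977.

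**Figure D1:**
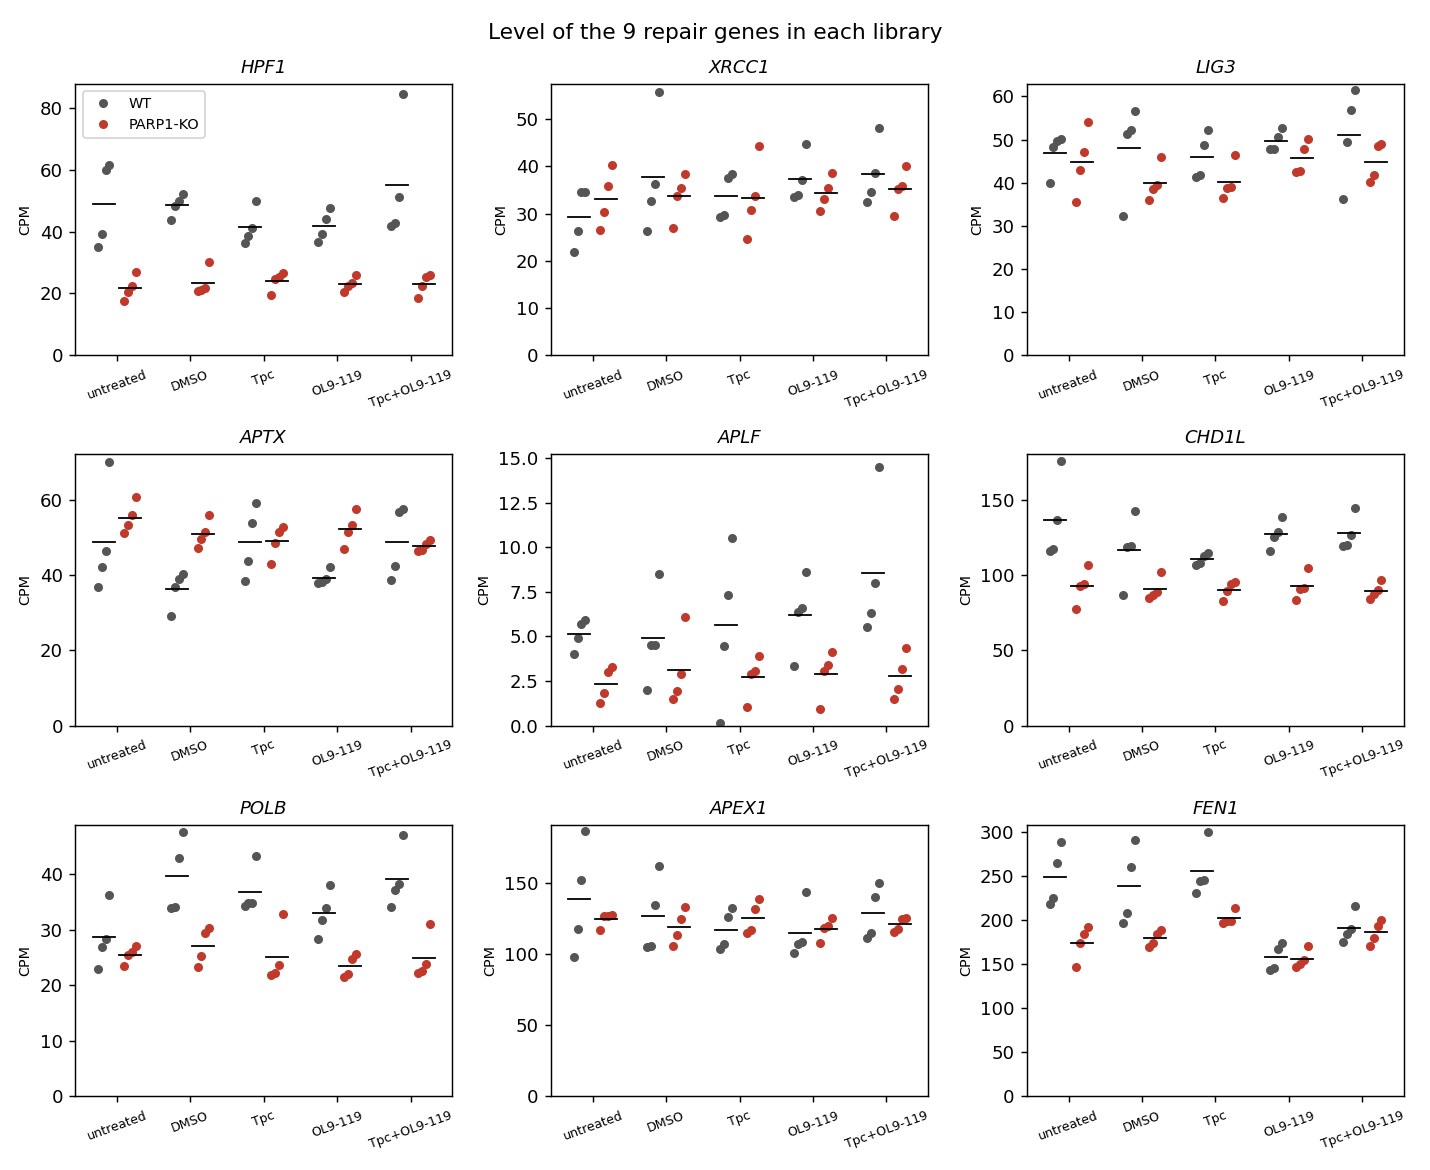
Level of each of the 9 genes in each library, in CPM on axes that start at 0, with 1 panel per gene and WT and PARP1-KO libraries in separate colours for each of 5 treatments. Points are libraries and short lines are means of 4. The 20 HPF1 points of PARP1-KO cells, between 17.6 and 30.2 CPM, all lie under the 20 of WT cells, between 35.0 and 84.5 CPM.

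HPF1 was the partner whose transcript was lowest relative to WT among the members called in each treatment. The gene lies on chromosome 4 (hg38, chr4:169729470-169757944, minus strand) and no other counted gene shares exon bases with it. The stretch just before its start is shown because HPF1 carried the largest called difference. It is 250 bases of GRCh38.p14 from RefSeq, chr4:169757945-169758194, minus strand, written 5′ to 3′, with GC boxes (GGGCGG) and the CCAAT box, here read on the other strand as ATTGG, in capitals.
HPF1: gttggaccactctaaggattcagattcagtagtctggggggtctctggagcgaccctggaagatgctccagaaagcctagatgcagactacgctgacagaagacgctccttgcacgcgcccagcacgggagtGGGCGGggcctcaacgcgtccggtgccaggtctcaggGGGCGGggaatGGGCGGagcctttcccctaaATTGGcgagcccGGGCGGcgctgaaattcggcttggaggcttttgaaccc
It was 62.0% G or C and held 4 GC boxes, beginning 118, 81, 70 and 38 bases before the start, and 1 CCAAT box at 50 bases. GC boxes occurred in 42.6% and CCAAT boxes in 32% of the same windows of 35116 RefSeq promoters. These letter matches describe the sequence only.

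HPF1, the cofactor that turns PARP1 and PARP2 toward serine, stood at 61.4, 35.0, 60.0 and 39.3 CPM in the 4 untreated WT libraries. In the 4 untreated PARP1-KO libraries it stood at 26.8, 20.5, 22.4 and 17.6 CPM. No PARP1-KO library reached the lowest WT library, and the level was 44.4% of WT (log2 fold change −1.17 ± 0.19 SE, adjusted p = 2.83e-06, edgeR quasi-likelihood test with Benjamini-Hochberg adjustment). With DMSO the libraries were at 49.8, 52.0, 48.2 and 43.8 CPM in WT and at 20.8, 21.7, 30.2 and 21.2 CPM in PARP1-KO cells, which was 48.4% of WT (−1.05 ± 0.19, adjusted p = 2.01e-05, edgeR). The level was 57.5% of WT with Tpc, 55.0% with OL9-119 and 41.7% with Tpc and OL9-119 (edgeR adjusted p = 0.00152, 5.15e-04 and 1.34e-06). Across treatments the 20 PARP1-KO libraries ranged from 17.6 to 30.2 CPM with a median of 22.5, and the 20 WT libraries from 35.0 to 84.5 CPM with a median of 43.9. Complete separation of this kind, all 20 PARP1-KO libraries lower, was seen for 451 genes, 1.56% of those tested, and HPF1 was the 1 member among them. Over the 3 treatments with equal doses in both genotypes (untreated, DMSO and OL9-119), which use the same libraries again, the mean log2 fold change of HPF1 was −1.03 ± 0.11 (adjusted p = 8.75e-12, edgeR). Without PARP1-KO Tpc replicate 2 the Tpc difference was −0.71 with an adjusted p of 0.012 in edgeR, past the threshold of 0.01, whereas under every setting that kept all its libraries (RLE size factors, other filters, DESeq2, offsets, the replicate block, the library name prefix and only the libraries compared) HPF1 was called in each of the 5 treatments.

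**Figure D2:**
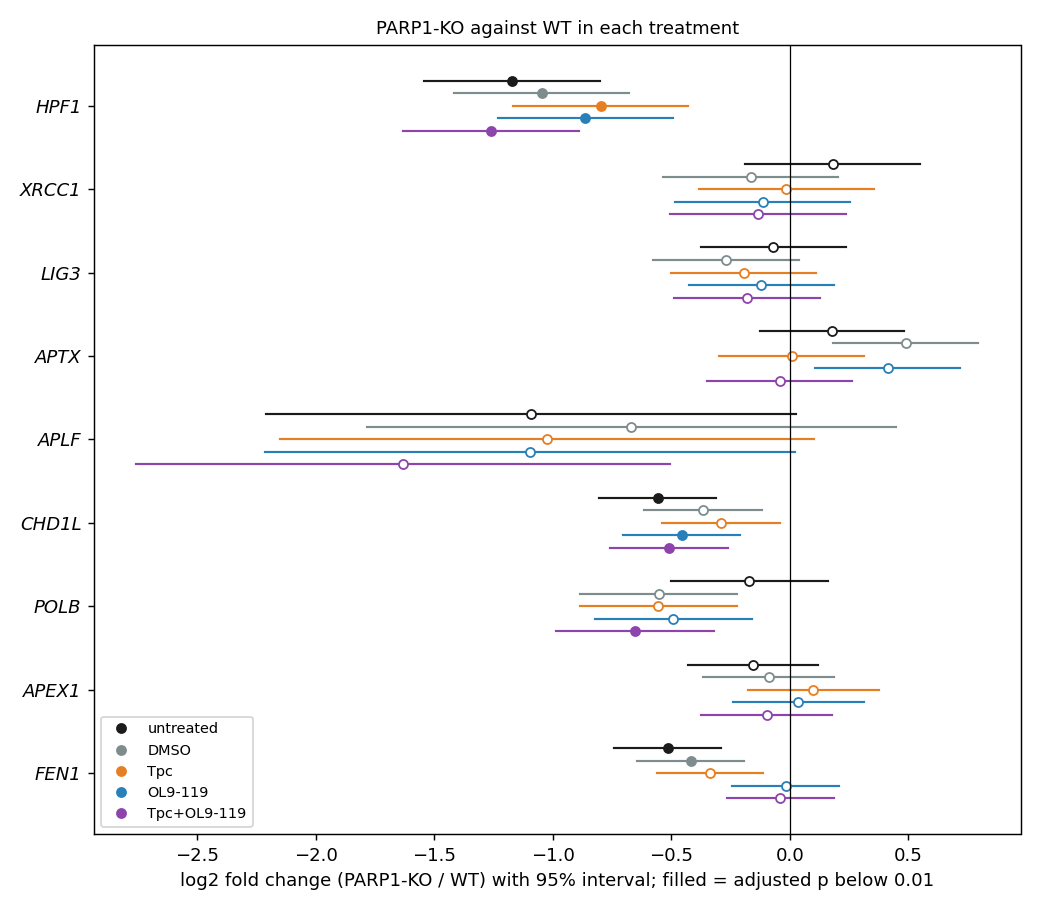
Log2 fold change of PARP1-KO against WT for each of the 9 genes in each of the 5 treatments, with 95% confidence intervals from edgeR; filled points passed an adjusted p of 0.01. HPF1 passed in all 5, and FEN1 passed untreated (−0.52) and with DMSO (−0.42) and lay near 0 with OL9-119.

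Untreated, 3 of the 9 partners were called between the genotypes at an adjusted p under 0.01, all lower in PARP1-KO cells (HPF1, FEN1 and CHD1L), while 11.7% of tested genes were called, 5.74% lower and 5.97% higher. With DMSO 2 were called, both lower (HPF1 and FEN1), against a background of 12.4%, of which 5.75% were lower. With Tpc, at unequal doses, HPF1 alone was called (background 8.52%, 4.34% lower). OL9-119 gave 2 lower calls, HPF1 and CHD1L (background 9.77%, 4.83% lower), and Tpc with OL9-119 gave 3, HPF1, CHD1L and POLB (background 7.27%, 3.71% lower). Libraries that did not overlap, lower in PARP1-KO cells, were found for 4 partners untreated (8.37% of tested genes), 3 in DMSO (7.76%), 4 in Tpc (9.3%), 3 after OL9-119 (10.9%) and 4 after both agents (7.29%). In the opposite direction they were found for APTX alone, with DMSO (12.3% of tested genes) and with OL9-119 (12.7%). The median log2 fold change of the 9 was −0.17 untreated, −0.37 under DMSO, −0.29 under Tpc, −0.12 under OL9-119 and −0.18 under both. Over all tested genes the medians were 0.17, 0.19, 0.07, 0.04 and 0.14, and over the 11954 genes with a mean of at least 5 CPM they were 0.01, 0.02, −0.0021, −0.01 and 0.01. Averaged over the 3 treatments at equal doses, 4 partners, HPF1, CHD1L, POLB and FEN1, were called lower (12% of tested genes were) and APTX higher (15.8% were), from 27.7% called in all. A larger share was called among the 11954 genes with a mean of at least 5 CPM. There 1580 were called higher and 1575 lower untreated, and 1719 and 1584 with DMSO. The counts were 1113 and 1196 with Tpc, 1345 and 1338 with OL9-119, and 916 and 1016 with both agents. For the mean of 3 treatments they were 3126 and 3063.

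FEN1, the flap endonuclease that trims displaced strands in long-patch repair and at Okazaki fragments, lies on chromosome 11 (chr11:61792911-61797238, plus strand). The bases before its start are printed because FEN1 was the member called both between genotypes and after a treatment, and they cover chr11:61792803-61792910, plus strand, 108 bases of GRCh38.p14 that lie in no annotated exon. The capitals mark an E-box.
FEN1: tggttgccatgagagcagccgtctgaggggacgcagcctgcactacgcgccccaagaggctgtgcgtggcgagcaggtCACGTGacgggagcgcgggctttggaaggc
This window was 67.6% G or C, and the E-box CACGTG was the only match among the motifs searched. The E-box was added to the search after this window was seen, so its match was fixed in advance. The motifs chosen before gave none here. The same E-box also lay before APEX1 (2 matches, 105 and 44 bases before the start) and LIG3 (1 match, at 72 bases). CACGTG occurred in 3.61% of promoters in the same window, the GC box in 32.5%, and the E2F-type words TTTGGCGC, TTTCCCGC and TTTCGCGC in 0.271%, 0.57% and 0.191%.

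Untreated WT libraries held FEN1 at 289, 226, 265 and 218 CPM, and untreated PARP1-KO libraries at 146, 192, 184 and 174 CPM. The 2 sets did not overlap, and PARP1-KO cells held 69.9% of the WT level (log2 fold change −0.52 ± 0.12 SE, adjusted p = 5.79e-04, edgeR). With length and GC offsets the difference was −0.30 and still called (adjusted p = 0.00745, edgeR). With DMSO FEN1 was at 261, 209, 291 and 197 CPM in WT and at 169.9, 174, 189 and 184 CPM in PARP1-KO cells, again without overlap (−0.42 ± 0.12, adjusted p = 0.00561, edgeR). The call with DMSO was lost without any 1 of 5 of the 8 libraries (WT replicates 1 and 3, PARP1-KO replicates 1, 2 and 4), and when length and GC offsets entered the fit, where the difference was −0.22 (adjusted p = 0.0584, edgeR), and with only the libraries compared (−0.45, adjusted p = 0.0494). With Tpc the difference was −0.34 ± 0.12 and missed the threshold (adjusted p = 0.039, edgeR), although the libraries did not overlap. After OL9-119 the genotypes overlapped, with WT at 168, 174, 146 and 143 CPM and PARP1-KO at 147, 170.4, 155 and 149.8 CPM. There the log2 fold change was −0.018 with a 95% interval of −0.24 to 0.21, and with Tpc and OL9-119 it was −0.04 with an interval of −0.27 to 0.19. Over the 3 equal-dose treatments the mean was −0.32 ± 0.067 (adjusted p = 8.78e-05, edgeR), and −0.15 with the offsets, no longer called (adjusted p = 0.0156).

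In WT cells OL9-119 lowered FEN1 to 63.2% of the untreated level, from 249 ± 33.5 to 158 ± 15.4 CPM (SD, n = 4). All 4 treated libraries lay below all 4 untreated ones (log2 fold change −0.66 ± 0.12 SE, 95% interval −0.89 to −0.44, adjusted p = 1.24e-04, edgeR). It was the 1 partner called, against a background of 1.28% of tested genes called and 0.833% called lower, and 2.87% with lower libraries that did not overlap. Set against DMSO in place of untreated cells, the change was −0.60 (adjusted p = 5.67e-04, edgeR). Leaving out any 1 of the 8 libraries kept the call, at −0.72 to −0.58, and the other settings gave −0.67 to −0.49 with edgeR or DESeq2 adjusted p between 1.36e-06 and 0.00854. Tpc and OL9-119 together gave WT libraries of 175, 217, 184 and 189 CPM, a change of −0.38 ± 0.12 from untreated that missed the threshold (adjusted p = 0.026, edgeR) although no library overlapped (4.01% of tested genes). Tpc alone left FEN1 at 231, 301, 246 and 244 CPM, 0.03 from untreated on the log2 scale, and the combination lay under every one of these Tpc libraries (−0.42 ± 0.12, adjusted p = 0.121, edgeR), as was so for 2.61% of tested genes.

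In PARP1-KO cells the same compound gave a FEN1 change of −0.16 with a 95% interval of −0.39 to 0.06 (adjusted p = 1, edgeR), from 174 ± 20.03 to 156 ± 10.4 CPM. The difference between the 2 responses, PARP1-KO minus WT, was 0.50 on the log2 scale with an interval of 0.18 to 0.82. Its unadjusted p was 0.00339 and its adjusted p 0.57 in edgeR, so the responses were not called different over all genes. With Tpc and OL9-119 the difference of responses was 0.48 (unadjusted p = 0.00502, adjusted p = 0.224, edgeR), at unequal Tpc doses. PCNA, the sliding clamp that FEN1 binds, was called with it in WT cells under OL9-119 at −0.57 (490 to 331 CPM, adjusted p = 7.01e-04, edgeR). Of 18 S phase genes 7 were higher and 11 lower in that comparison, 4 with an unadjusted p under 0.05 in edgeR, their median log2 fold change was −0.05, and their part in the FEN1 result was not tested.

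**Figure D3:**
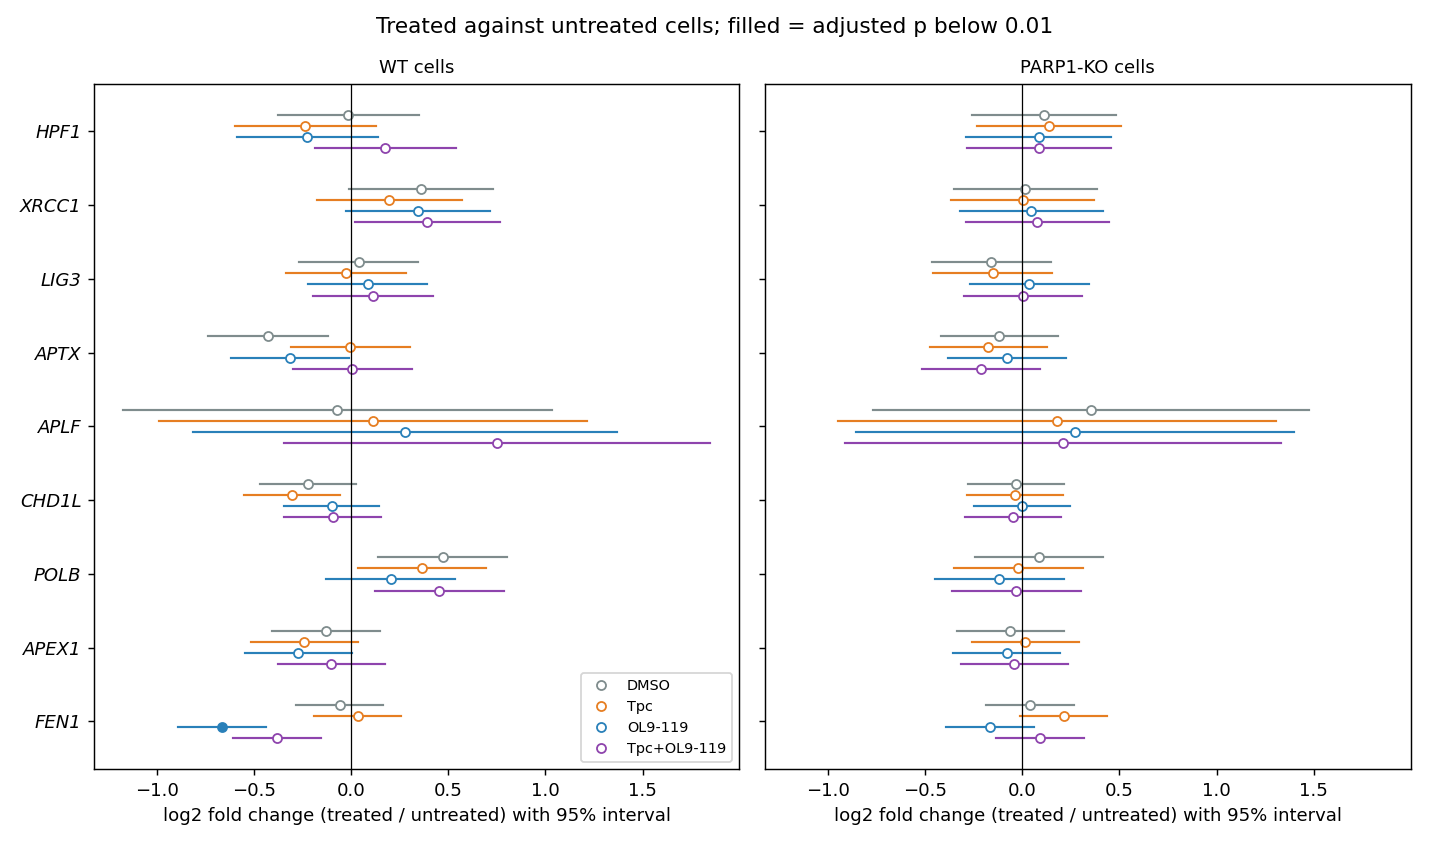
FEN1 and the other partners after each treatment, as log2 fold change from untreated cells of the same genotype with 95% confidence intervals from edgeR; filled points passed an adjusted p of 0.01. The only filled point is FEN1 with OL9-119 in WT cells, at −0.66, and the PARP1-KO interval for the same comparison, −0.39 to 0.06, includes 0.

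CHD1L, a chromatin remodeller that poly(ADP-ribose) activates, lies on chromosome 1 (chr1:147242654-147295765, plus strand), the chromosome of PARP1. Its upstream stretch, chr1:147242434-147242653 on the plus strand, covers 220 bases of GRCh38.p14. It is given for contrast with that of HPF1, since none of the searched motifs occurred in it and no letter is in capitals.
CHD1L: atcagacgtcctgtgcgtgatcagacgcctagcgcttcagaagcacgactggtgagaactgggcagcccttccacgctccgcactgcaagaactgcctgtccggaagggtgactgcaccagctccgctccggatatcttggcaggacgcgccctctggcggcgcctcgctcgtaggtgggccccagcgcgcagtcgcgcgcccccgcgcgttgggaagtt
It was 66.4% G or C, and GC boxes occurred in 38.9% and CCAAT boxes in 29.8% of promoters in the same window.

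Untreated WT libraries held CHD1L at 137, 117.1, 175 and 116.2 CPM and untreated PARP1-KO libraries at 106, 92.9, 93.9 and 77.7 CPM. The groups did not overlap, with a mean of 136 ± 27.7 CPM in WT and 92.8 ± 11.8 CPM in PARP1-KO cells (SD, n = 4). The log2 fold change was −0.56 ± 0.13 (SE, adjusted p = 6.97e-04, edgeR), and without WT untreated replicate 3, the highest library, it was −0.41 and missed the threshold (adjusted p = 0.0175). With OL9-119 it was −0.46 (adjusted p = 0.00699) and with both agents −0.51 (adjusted p = 0.00331), both called by edgeR. The call with OL9-119 was kept in 2 of 8 fits that left out 1 library each (edgeR adjusted p up to 0.0355, lost without WT replicates 1, 2 or 4 or PARP1-KO replicates 1, 2 or 4) and was lost with RLE size factors (adjusted p = 0.0113). The call with both agents was kept in 4 of 8 such fits (adjusted p up to 0.0238, lost without WT replicate 2 or PARP1-KO replicates 1, 2 or 4). With DMSO, at −0.37, and with Tpc, at −0.29, the differences missed the threshold (edgeR adjusted p = 0.0312 and 0.124). Over the 3 treatments at equal doses the mean was −0.46 ± 0.073 (adjusted p = 4.64e-07, edgeR). A long noncoding RNA on the same strand, ENSG00000237188, shares 63.2% of the exon bases of CHD1L, and it had a median of 6 counts against 1114.5 for CHD1L, and STAR counts no read that falls on exons of both.

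POLB, the polymerase that fills the gap of a single lost base, was called between genotypes in 1 treatment. Untreated WT libraries were at 28.3, 27.0, 36.3 and 23.0 CPM and untreated PARP1-KO libraries at 27.1, 25.96, 25.5 and 23.4 CPM, and the genotypes overlapped (log2 fold change −0.17, 95% interval −0.50 to 0.16). With Tpc and OL9-119 WT libraries were at 38.2, 47.1, 37.2 and 34.05 CPM and PARP1-KO libraries at 23.9, 22.2, 22.6 and 31.0 CPM, without overlap. That difference was called (−0.65 ± 0.17, adjusted p = 0.00495, edgeR). The call was lost without WT replicates 1 or 2 or PARP1-KO replicates 1, 2 or 3, with an edgeR adjusted p of 0.0102 to 0.0367, and with no filter on low counts (adjusted p = 0.0121). The differences with DMSO at −0.55, Tpc at −0.56 and OL9-119 at −0.49 were not called (edgeR adjusted p = 0.0129, 0.0174 and 0.0382), although the libraries did not overlap in any of these either. DESeq2, the filterByExpr filter and the offsets each called those with DMSO and with Tpc. In WT cells POLB was 0.47 higher with DMSO than untreated on the log2 scale (adjusted p = 0.316, edgeR) and 0.45 higher with both agents (adjusted p = 0.0845, edgeR). PARP1-KO cells held it between 21.6 and 32.9 CPM in all 20 libraries.

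APTX, the hydrolase that removes AMP left by an aborted ligation, was the partner called higher in PARP1-KO cells, and only over the mean of 3 treatments. With DMSO WT libraries were at 40.2, 38.9, 29.1 and 36.8 CPM and PARP1-KO libraries at 47.1, 55.9, 51.3 and 49.5 CPM. The groups did not overlap, at 0.49 ± 0.16 on the log2 scale, but edgeR did not call the difference (adjusted p = 0.0192). Libraries treated with OL9-119 were also apart, at 38.0 to 42.2 CPM in WT and 46.9 to 57.6 CPM in PARP1-KO cells (0.41, adjusted p = 0.0641, edgeR). Untreated, with Tpc and with both agents the difference lay between −0.04 and 0.18. The mean over the 3 treatments at equal doses was 0.36 ± 0.090 (adjusted p = 9.21e-04, edgeR), and with length and GC offsets it was 0.26 and no longer called (adjusted p = 0.0248). In WT cells APTX was 0.43 lower with DMSO than untreated (adjusted p = 0.318, edgeR).

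XRCC1, LIG3 and APEX1, the scaffold, its ligase and the abasic endonuclease, were called in none of the genotype comparisons by edgeR or DESeq2, and none of their unadjusted p-values was under 0.05 in edgeR. XRCC1 ranged over 21.9 to 55.9 CPM in WT and 24.6 to 44.3 CPM in PARP1-KO libraries, with a mean log2 difference over the 3 equal-dose treatments of −0.033 (95% interval −0.25 to 0.18). Untreated, XRCC1 was 0.18 higher in PARP1-KO cells on the log2 scale, and 0.48 higher with length and GC offsets (adjusted p = 0.0259, edgeR). LIG3, whose exons overlap RFFL on the opposite strand over 3754 bases, 29.1% of its exon length, ranged over 32.4 to 61.5 CPM in WT and 35.5 to 54.1 CPM in PARP1-KO libraries, with a mean difference of −0.15 (−0.33 to 0.02). APEX1 untreated was at 187, 118, 152 and 97.8 CPM in WT and at 127.2, 126.7, 116.7 and 127.7 CPM in PARP1-KO cells, so the PARP1-KO libraries lay within the WT range. Its mean difference was −0.07 (−0.23 to 0.09).

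APLF, a histone-binding end-processing factor that XRCC1 and poly(ADP-ribose) recruit, gave only 2 to 181 counts per library, with a median of 42.5. Untreated libraries were at 4.92, 5.67, 5.93 and 4.00 CPM in WT and at 1.25, 3.26, 3.03 and 1.86 CPM in PARP1-KO cells. They did not overlap, and the difference of −1.09 ± 0.57 (SE) was not called (adjusted p = 0.185, edgeR). With both agents it was −1.63 ± 0.57 (adjusted p = 0.04996, edgeR), and averaged over the equal-dose treatments −0.95 ± 0.33 (adjusted p = 0.0175). Its WT Tpc libraries ran from 0.178 to 10.5 CPM, the lowest resting on 2 counts. The mean over the equal-dose treatments was called in 2 of 24 fits that left out 1 library each, and by DESeq2 (adjusted p = 0.00939), with the offsets (−1.27, adjusted p = 0.00129), with no filter on low counts (adjusted p = 0.006) and with only the libraries compared (adjusted p = 0.00948). The difference with both agents was called with only the libraries compared (adjusted p = 0.00624). PROKR1 on the same strand overlaps 22.9% of the exon bases of APLF.

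Apart from FEN1 with OL9-119, no partner was called after a treatment. In WT cells edgeR called 0 of 9 with DMSO (background 0% of tested genes, 2 partners at an unadjusted p under 0.05), 0 with Tpc (background 0.857%, 2 partners), 0 with Tpc and OL9-119 (background 4.07%, 3 partners) and 0 for the combination against Tpc (background 0.18%, 2 partners). DESeq2 also called 0 in these 4 comparisons. CHD1L with Tpc lay below every untreated WT library (107 to 114.4 against 116.2 to 175 CPM, log2 fold change −0.30, adjusted p = 0.216, edgeR), where 2.44% of tested genes had lower libraries that did not overlap. In PARP1-KO cells no partner was called with DMSO (background 0%), Tpc (0.0138%), OL9-119 (0.00346%), both agents (0%) or both against Tpc (0%), none had an unadjusted p under 0.05, and DESeq2 called 0. No difference of responses between the genotypes was called either (backgrounds of 0% for DMSO, 0.1% for Tpc, 0.0657% for OL9-119 and 0.27% for both, with 0, 0, 1 and 2 partners at an unadjusted p under 0.05, and 0 by DESeq2). Some libraries were apart without a call. With Tpc, FEN1 in PARP1-KO cells lay above every untreated library (197 to 214 against 146 to 192 CPM). With both agents, APTX in PARP1-KO cells lay below every untreated one (46.4 to 49.4 against 51.1 to 60.7 CPM). CHD1L in WT cells was higher with both agents than with Tpc (119 to 145 against 107 to 114.4 CPM). The share of tested genes apart in this way is not given for these. The comparisons with untreated cells of a genotype share those 4 libraries.

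Other genes of single-strand break and base excision repair moved in both directions between the genotypes. Of 36, all tested, 1 was called higher and 4 lower untreated, and 5 higher and 5 lower with DMSO. Of all tested genes 11.7% were called untreated and 12.4% with DMSO. Among the 11954 genes with a mean of at least 5 CPM, 1580 were called higher and 1575 lower untreated, and 1719 and 1584 with DMSO. The medians of the 36 were 0.11 and 0.08, beside −0.17 and −0.37 for the 9 partners. POLD2, the small subunit of polymerase delta, was at 94.0 CPM in PARP1-KO and 150 CPM in WT cells untreated (log2 fold change −0.68) and at −0.72 with DMSO. POLE4, a histone-fold subunit of polymerase epsilon, was at −1.44 and −1.54, and the glycosylases SMUG1 and NEIL1 were at −0.60 and −0.69 and at −1.57 and −2.02, in the same order. RFC3, part of the clamp loader, was the 1 called higher in both, at 0.92 and 0.87. With Tpc 2 were called higher and 4 lower (8.52% of tested genes were called), with OL9-119 4 and 3 (9.77%), and with both agents 1 and 2 (7.27%). PARP2, the other break-sensing polymerase that HPF1 serves, was higher by 0.31 untreated (adjusted p = 0.151, edgeR) and by 0.51 with DMSO (adjusted p = 0.00964, edgeR). In WT cells POLD3, another polymerase delta subunit, was called higher with Tpc (0.56) and with both agents (0.45), and RFC3 with both agents (0.53). Of the 18 S phase genes, 6 were called higher and 1 lower untreated, where 5.97% and 5.74% of tested genes were. They were led by DTL at 0.94, GINS2 at −0.72, CDT1 at 0.64 and CDC6 at 0.63, while FEN1 was lower. The part of cell cycle position in the FEN1 difference was not tested.

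Genes around the partners differed between the genotypes as well. Within 5 Mb of FEN1, 147 of 163 genes with at least 5 CPM were lower in untreated PARP1-KO cells, 91 called lower and 3 higher, with a median log2 fold change of −0.65, and 62 of them lay higher than FEN1 itself. With DMSO the median there was −0.68. Lower values extended across chromosome 11, where 557 of 680 genes were lower untreated at a median of −0.51. The values for the other regions below are also untreated unless DMSO is named. The next gene on one side, FADS2, which shares 49 exon bases with FEN1 on the same strand, was at −1.22 untreated, and TMEM258 on the other side at −0.62. HPF1 stood out from its surroundings more than FEN1 did in this description. Of the 17 genes around it 16 were lower untreated, 5 called lower, with a median of −0.49, and 1 was lower than HPF1. With DMSO 8 were called lower and 2 were lower than HPF1. Chromosome 4 had a median of −0.40 untreated, with 343 of 437 genes lower. Its neighbours CLCN3 and MFAP3L were at −0.49 and −0.29. The 72 genes around CHD1L had a median of 0.15 and 8 of them were lower than CHD1L, and its neighbours PRKAB2 and BCL9 were at 0.71 and 0.31. POLB sat among 38 genes with a median of −0.34, 11 of them called lower, and its neighbours IKBKB and VDAC3 were at −0.39 and −0.87. The 59 genes around APTX had a median of −0.14, and NDUFB6 and DNAJA1 beside it were at −0.33 and 0.59. Any part of the number of chromosome copies in these differences was not tested.

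**Figure D4:**
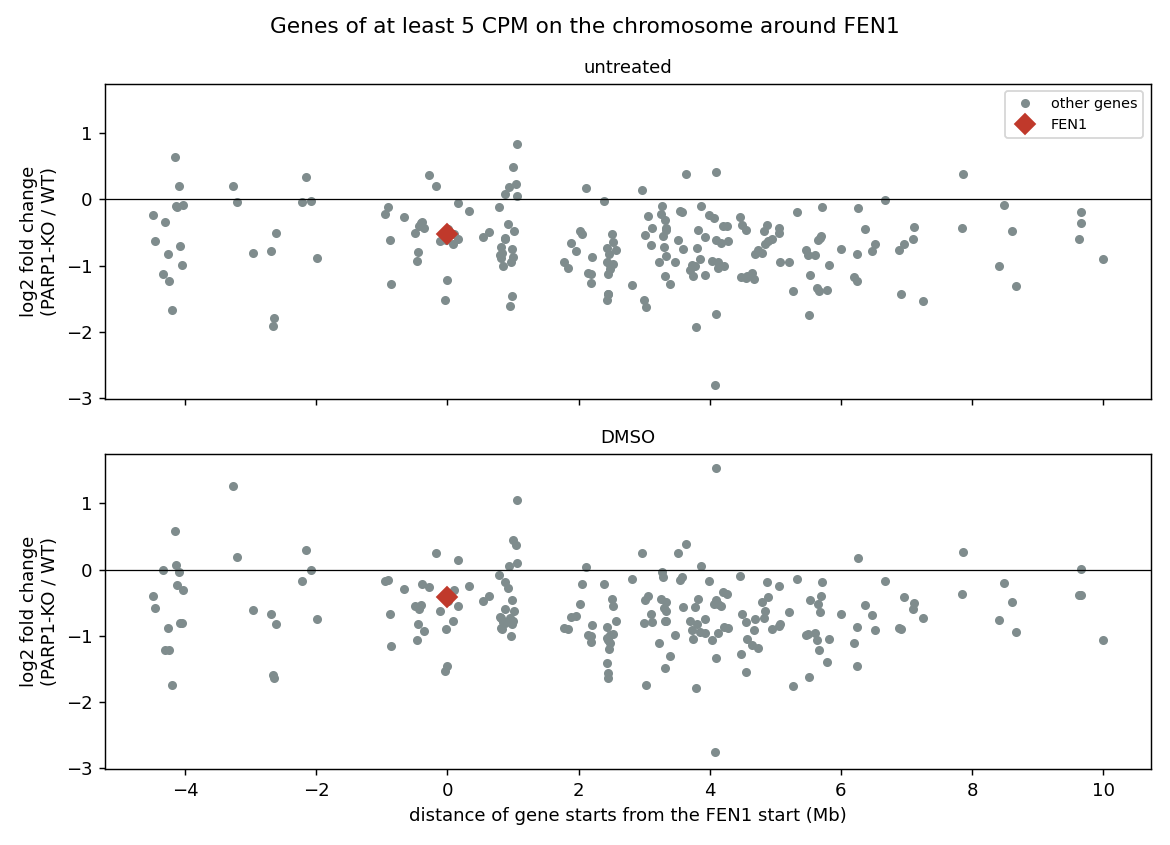
Log2 fold change of PARP1-KO against WT for each gene with a mean of at least 5 CPM around FEN1, untreated in the upper panel and with DMSO in the lower, against the distance of its start from that of FEN1 in megabases, with FEN1 as a diamond. Most points lie below 0, and untreated within 5 Mb 62 of 163 genes lie above FEN1 at −0.52.

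**Figure D5:**
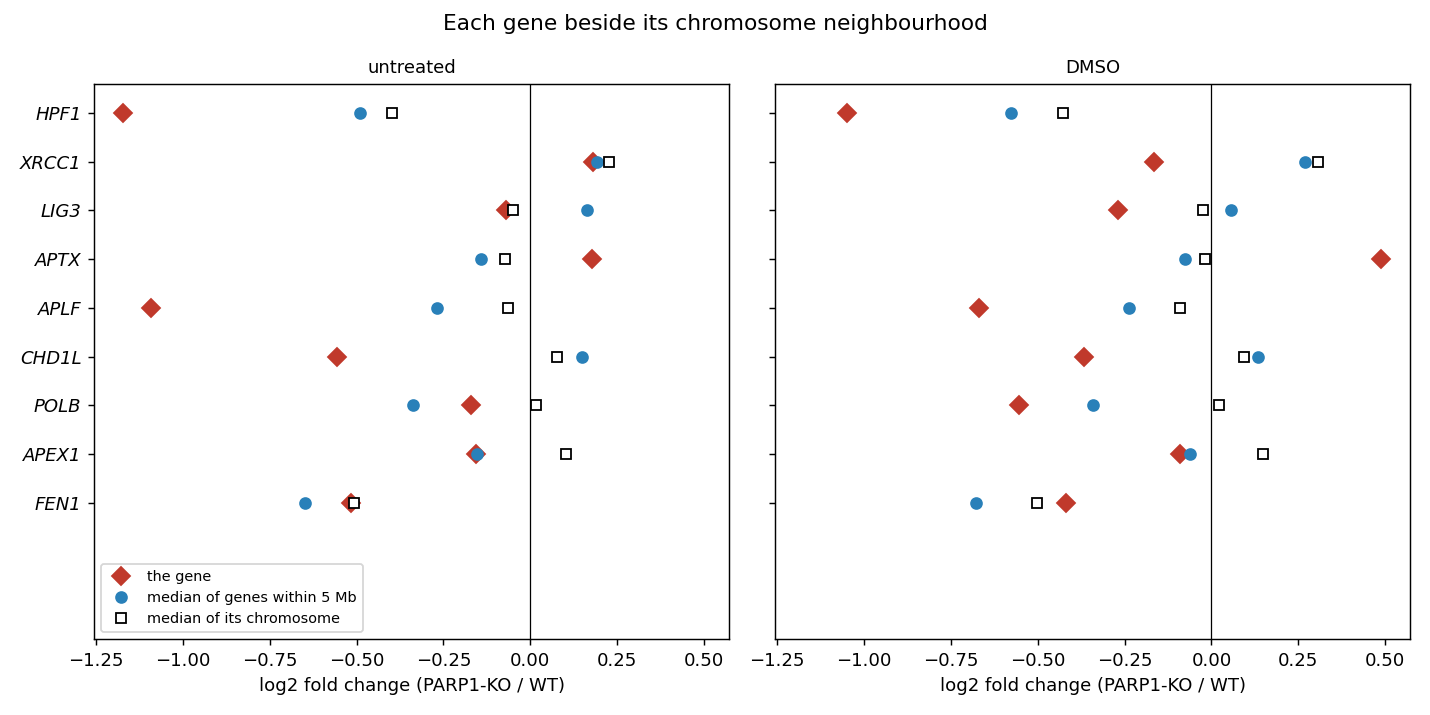
Log2 fold change of PARP1-KO against WT for each of the 9 genes beside the median of the genes within 5 Mb of it and the median of its chromosome, untreated on the left and with DMSO on the right. HPF1 (−1.17 and −1.05) and CHD1L (−0.56 and −0.37) lie below both medians in each panel, and FEN1 (−0.52 and −0.42) lies above the median of its neighbours (−0.65 and −0.68).

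By the pattern of mean log2 CPM over the 10 conditions, among 11926 other genes, the gene most like HPF1 was SESN3 (Pearson r = 0.99), that most like FEN1 was TSPYL1 (0.99) and that most like CHD1L was CRTAP (0.99). APLF was nearest to GUCY1B1 (0.99), POLB to TLCD1 (0.97), APTX to STEAP1B (0.96), LIG3 to STX16 (0.94), XRCC1 to ENSG00000266865 (0.92) and APEX1 to UQCC4 (0.90). These are descriptions over 10 points that come from the same 40 libraries and hold the difference between 2 genotypes.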

How the data were processed

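Poly(A) RNA of 40 libraries (10 conditions, 4 libraries each) was sequenced by the authors as paired reads of 100 bases from a directional kit. Per the labels and the methods, reads were aligned to hg38 with STAR 2.7.8 and raw counts per gene with an Ensembl annotation were deposited, with FastQC 0.11.9 and Picard 2.26.6 among the submitters' processing notes. The strand setting of the counting is not given in the sources used here. How reads of overlapping and antisense genes were assigned is therefore not known. The labels call the replicates biological and the methods technical, so p-values measure the spread between these libraries, which may be technical. No columns were identical, and each pair of replicates differed by more than sampling noise.

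From the counts, genes with a sum of at least 10 were kept (28922 of 58395) and scaled by TMM. edgeR 4.0.16 (R 4.3.3) fitted 1 group per condition over all 40 libraries by its quasi-likelihood method, and 20 comparisons were tested with Benjamini-Hochberg adjustment over all 28922 genes at a threshold of 0.01. Standard errors came from the F statistic. Positions and exon lengths came from GENCODE 44 (57754 genes matched), and promoters from RefSeq, where 8 of 9 partners matched. Upstream windows were trimmed to bases outside annotated exons and searched on both strands for the GC box (GGGCGG), the CCAAT box, the E-box (CACGTG), the ETS-type CCGGAAGT, the NRF1 motif and E2F-type words (TTTGGCGC, TTTCCCGC or TTTCGCGC), with the E-box added after the FEN1 window was seen. The method was also run on data simulated with the same spread for every gene, and the outcome is not reported here. DESeq2 1.42.0, RLE size factors, other filters, offsets, the replicate block and each left-out library were alternatives. Named were all 9 partners, PARP1, other repair genes called alike untreated and with DMSO or after any treatment, up to 4 S phase genes, the most similar gene of each partner and the nearest neighbours of called partners. PARP2 and the overlapping genes were named after their values were seen. The partners and lists were chosen with earlier results of these data known.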

Additional observations from a re-analysis of the deposited data

Results flagged for a closer look

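Among 90 sets of 4 libraries (9 genes in 10 conditions), 5 held a library far from the other three, and chance gives about 1 in 20. HPF1 was at 30.2 CPM in replicate 3 of PARP1-KO cells with DMSO and at 20.8 to 21.7 CPM in the others, still under every WT library. POLB was at 43.4 CPM in replicate 2 of WT cells with Tpc (others 34.4 to 34.9) and at 32.9 CPM in replicate 4 of PARP1-KO cells with Tpc (others 21.8 to 23.7). APEX1 was low in replicate 3 of untreated PARP1-KO cells, at 116.7 CPM against 126.7 to 127.7. FEN1 was at 214 CPM in replicate 3 of PARP1-KO cells with Tpc against 197 to 199.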

How the results depend on the processing

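The number of partners called between genotypes moved mainly where few were called. With DMSO it was 2, and 1 with only the libraries compared, 4 with DESeq2 and 5 at a threshold of 0.05. The filterByExpr filter added POLB there, and smaller changes of a count are not all listed here. With Tpc it was 1, and 2 with filterByExpr, with length and GC offsets and with DESeq2, 3 with only the libraries compared and 3 at 0.05. With OL9-119 it was 2, and 1 with RLE size factors (CHD1L, adjusted p = 0.0113, edgeR). For Tpc with OL9-119 in WT cells it was 0, and 1 with offsets (XRCC1) and 1 at 0.05 (FEN1). Leaving out 1 library gave 2 to 3 untreated, 1 to 3 with DMSO, 0 to 2 with Tpc, 1 to 2 with OL9-119, 1 to 3 with both agents and 5 to 6 for the mean of 3 treatments (5 called), always 1 for OL9-119 in WT cells, and 0 elsewhere. The cause was not tested. The median of neighbours changed sign for APEX1 within 2 Mb (0.26 untreated, 0.21 with DMSO) and for LIG3 within 10 Mb with DMSO (−0.00499). FEN1 led in 8 conditions, not 10, by canonical length.

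Replicate numbers did not pair the libraries. In 0 of 15 comparisons did every pair correlate above 0.1, mean r lay between −0.0703 and 0.163, and at most 4 of 8 libraries correlated best with their own number. With the replicate block the counts of partners called stayed at 3 untreated and 2 with DMSO, and it changed no call of a partner. Nor did a term for the library name prefix. APLF rests on 2 to 181 counts per library.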

Other observations

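Over the 9 transcripts, the median coefficient of variation between 4 libraries was larger in WT than in PARP1-KO cells in each treatment. It was 20.3% in WT and 12.7% in PARP1-KO cells untreated, 19.6% and 10.5% with DMSO, 12.1% and 10.7% with Tpc, 11.8% and 8.48% with OL9-119, and 18.2% and 10.1% with both agents. The coefficient was larger in WT cells for 7, 7, 6, 5 and 8 of the 9 genes in these treatments. The difference in spread was not tested, and it was not set beside that of all genes. WT libraries were also smaller, with a median of 9258040 counts against 11407498.5 in PARP1-KO libraries.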
